A study of Homo sapiens with 6 samples.

Results

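The high mobility group genes HMGB1, HMGB2, HMGB3, HMGA1, HMGA2, HMGN1, HMGN2, HMGN3, HMGN4 and HMGN5 encode small chromatin proteins, and the question asked was whether chromatin at the relatives of HMGB2 changed when HMGB2 was overexpressed. Accessibility was measured by ATAC-seq, in which the Tn5 transposase cuts and tags open DNA, in A375, an established human melanoma cell line. The groups were 3 libraries of cells with an empty vector and 3 libraries of HMGB2OE cells, a stable line made by lentiviral transduction with an HMGB2 overexpression plasmid. The sources used here do not describe the insert of the plasmid, and the reporting summary calls the libraries technical replicates of an experiment done once, so every spread and p-value below is one between libraries and not between independent cultures. A peak belonged to a gene when its centre lay in the gene body in GENCODE release 44, or when it lay outside all gene bodies and the gene had the nearest protein-coding transcript start. By that rule 93 of 152800 peaks belonged to the family, and all 93 were tested: 39 to HMGA2, 12 to HMGB1, 11 to HMGN4, 7 each to HMGA1 and HMGN3, 4 each to HMGB2, HMGB3 and HMGN2, 3 to HMGN5 and 2 to HMGN1.

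The family has 3 branches that share a name from their mobility in gels and little else in sequence. HMGB proteins carry paired HMG-box domains and an acidic tail and bend DNA without strong sequence preference, HMGA proteins hold AT-rich DNA in the minor groove with AT-hook motifs, and HMGN proteins bind the nucleosome core itself and loosen the hold of linker histone H1. HMGB1 also acts outside the cell as a danger signal through receptors such as AGER and TLR4, and HMGA2 is an embryonic gene that is switched on again in many tumours.

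The libraries held 26910189 to 45645294 counts in peaks. Of the melanocytic markers, 3 had strong promoter peaks, with normalized counts of 830.5 to 890.5 at SOX10, 1205 to 1450 at MITF and 3416 to 4162 at PMEL, whereas MLANA had 146 to 167 and no promoter peak of TYR or DCT was in the atlas. At promoters of the blood, epithelial and endothelial markers PTPRC, EPCAM, KRT5 and PECAM1 the normalized counts were 106 to 230, a range that includes that of MLANA, and ALB had no promoter peak. A normalized count is the count scaled to the mean effective library size, so that libraries can be set side by side, and nearly all peaks are 502 bp wide, so that levels are per equal length.

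Of the 89 peaks of the 9 relatives, 1 was called lower in HMGB2OE and 0 were called higher, where a call needed an adjusted p-value under 0.05 in edgeR's quasi-likelihood test and a fold change of at least 1.5. Over all 150117 tested peaks these rules called 1.87% higher and 1.44% lower. HMGB2 itself had 2 of its 4 peaks called higher. Without the fold limit 3 of the 89 peaks were lower and 0 higher, against 3.03% lower and 3.44% higher over all tested peaks. An unadjusted p-value under 0.05 was found in 17 of the 89, against 31358 of all 150117 tested peaks. The libraries of the groups did not overlap in 17 of the 89 peaks, 5 higher and 12 lower, against 12.6% higher and 12.5% lower over all tested peaks. The median log2 fold change of the 89 peaks was −0.06, with 34 above 0 and 55 below, and that of all tested peaks was −0.0049. The share of the relatives' peaks that were called was thus not above the share over all tested peaks.

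**Figure D1:**
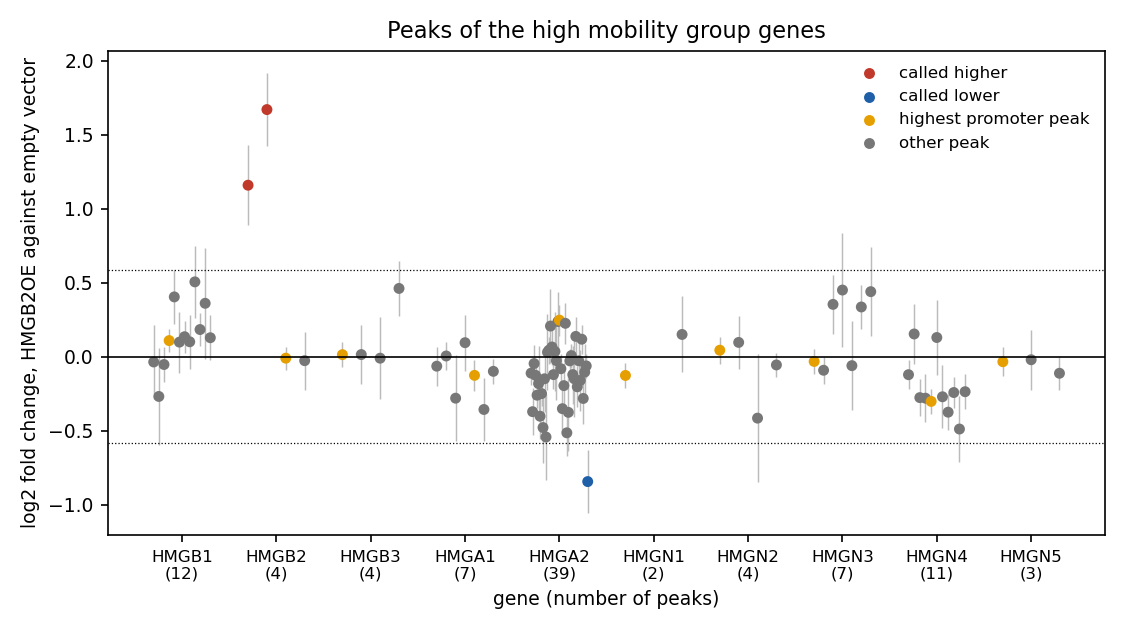
Log2 fold change of HMGB2OE against empty vector (vertical axis) for the 93 peaks of the family by gene, in genome order within each gene; bars are standard errors and dotted lines mark a fold of 1.5. The 2 peaks called higher are in HMGB2 at 1.67 and 1.16, and the peak called lower is in HMGA2 at −0.84.

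HMGB2 lies on chromosome 4 from 173331376 to 173334432 on the minus strand, and its peaks split by what they cover. The peak over the promoter, centred 103 bp before the transcript start, had normalized counts of 1766, 1979 and 2213 in the empty vector libraries and 1924, 1956 and 2039 in HMGB2OE. These ranges overlap, and the log2 fold change was −0.01 (standard error 0.0788, adjusted p = 0.959). The peaks that rose are those over coding exons. The peak from 173332680 to 173333181, with 288 coding bases, had 50, 25 and 21.1 normalized counts in empty vector and 102, 101 and 92.3 in HMGB2OE libraries, and the peak from 173331939 to 173332440, with 156 coding bases and the rest in the last exon's untranslated part, had 32, 21.5 and 32.8 against 55.3, 75.1 and 58.5. The groups did not overlap in either peak. On the log2 scale the former rose by 1.67 (standard error 0.249, adjusted p = 0.000113) and the latter by 1.16 (standard error 0.27, adjusted p = 0.00822). The latter call was lost when empty vector replicate 2 was left out (adjusted p = 0.0602) or HMGB2OE replicate 2 (0.074). The intergenic peak 11857 bp before the start changed by −0.03 (adjusted p = 0.958). Together the called peaks cover bases 184 to 627 of the 627-base coding sequence, and no peak of the atlas assigned to HMGB2 covers coding bases before these.

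A processed copy of the same coding sequence lies elsewhere in the genome. HMGB2P1 is a transcribed processed pseudogene, that is a reverse-transcribed copy of a spliced messenger RNA, on chromosome 19 from 1203209 to 1203842 on the plus strand, within the body of STK11, a tumour-suppressor kinase gene, to which the rule for intragenic peaks assigns it. Aligned with the HMGB2 coding sequence it held 560 identical bases of 605 aligned (92.6%), and the part within the atlas peak from 1203153 to 1203654 matched coding bases 1 to 440 with 403 identical of 439 (91.8%). The copy crosses exon junctions without an intron. The longest identical run was 59 bases and contained the junction after coding base 296. The stretches below show that run in coding bases 257 to 376, written 5′ to 3′ in hg38, with capitals marking the bases that differ from HMGB2; the HMGB2 stretch lies on the minus strand of chromosome 4 between 173332916 and 173333108 with its intron left out, the HMGB2P1 stretch on the plus strand at chr19:1203471-1203590, and the HMGB1 stretch on the minus strand of chromosome 13 between 30462633 and 30463246, with its intron left out.
HMGB2: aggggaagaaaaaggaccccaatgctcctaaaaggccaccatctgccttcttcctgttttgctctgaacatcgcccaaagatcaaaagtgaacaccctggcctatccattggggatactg
HMGB2P1: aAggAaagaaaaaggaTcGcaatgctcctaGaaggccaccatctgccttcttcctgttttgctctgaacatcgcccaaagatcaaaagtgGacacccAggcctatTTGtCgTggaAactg
HMGB1: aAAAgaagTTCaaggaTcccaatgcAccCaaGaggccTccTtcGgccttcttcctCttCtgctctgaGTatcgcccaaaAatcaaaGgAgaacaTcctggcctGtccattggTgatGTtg
HMGB2P1 differs from HMGB2 at 13 of these 120 bases and HMGB1 at 25. Counted from 1 at the start codon, the substitutions in the copy around the run are A287G before it and A347G after it.

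**Figure D2:**
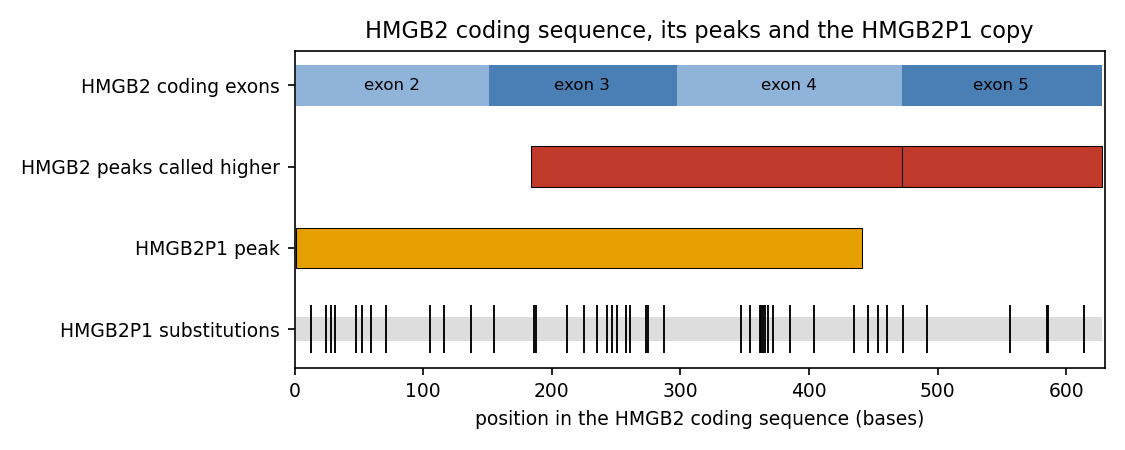
The HMGB2 coding sequence (horizontal axis, bases from the start codon) with its exons, the coding bases covered by the HMGB2 peaks called higher, those matched by the HMGB2P1 peak, and the 45 positions at which HMGB2P1 differs (black ticks). The HMGB2 peaks cover bases 184 to 627 and the HMGB2P1 peak matches bases 1 to 440.

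The HMGB2P1 peak had normalized counts of 9.73, 6.88 and 21.1 in the empty vector libraries and 92.7, 84.2 and 87.8 in the HMGB2OE libraries. All 3 HMGB2OE libraries lay above all 3 empty vector libraries, and the difference of 2.84 on the log2 scale (standard error 0.307, adjusted p = 2.13e-06) was the largest rise among all 150117 tested peaks. To see which peaks share sequence with HMGB2, the coding sequence was cut into its 608 overlapping words of 20 bases, and 34 peaks outside HMGB2 held at least 1 of them on either strand. The HMGB2P1 peak held 70, and each of the other 33 held 7 or fewer. Of those 33, 32 were tested, their log2 fold changes lay between −0.66 and 0.23, and 0 were called and 1 passed the adjusted p-value alone, that of the AMOT peak (log2 fold change −0.46, adjusted p = 0.0209), chosen after its value was seen. The HMGB2 gene contained 556 of the 608 words and HMGB2P1 98, of which 9 span an exon junction and do not occur in the gene.

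The coding sequences of the nearest relatives had less in common with HMGB2. HMGB1 was identical at 483 of 627 aligned bases (77%) with a longest run of 29 and shared 10 of the 608 words, and HMGB3 at 435 of 600 (72.5%) with a longest run of 15 and 0 shared words. No peak of HMGB1 or HMGB3 was called. The counts do not separate reads of an introduced HMGB2 coding sequence from reads of the chromosomal exons or of HMGB2P1, and the part of such reads in these 3 rises was not tested.

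**Figure D3:**
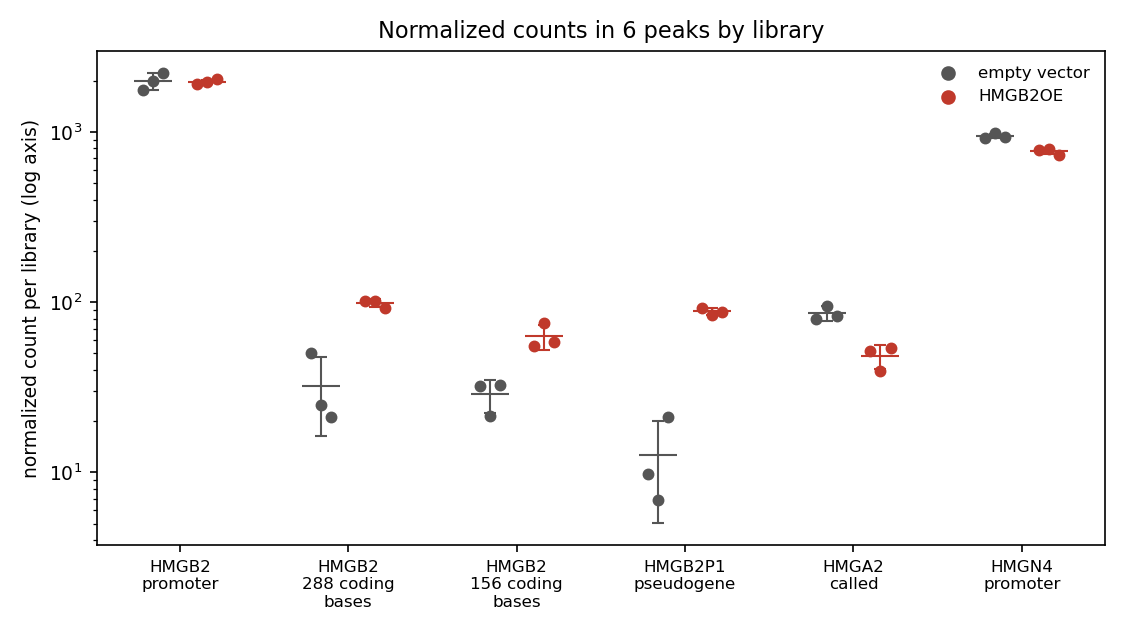
Normalized counts (vertical log axis) in each library of 6 peaks, with horizontal marks and bars for the mean and SD of 3 libraries. The HMGB2OE libraries lie above the empty vector libraries in the HMGB2 coding peaks and in the HMGB2P1 peak, below them in the HMGA2 called peak and the HMGN4 promoter peak, and among them in the HMGB2 promoter peak.

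Every family gene had a promoter peak, defined as a peak centred within 3 kb of one of its transcript starts. The strongest of each ranked from the 65.4 to the 97.8 percentile of 39607 promoter peaks by mean normalized count. These 39607 include weaker peaks of the same genes, so that taking the strongest raised the ranks by choice. In empty vector libraries the means were 1986 ± 223 (SD, n = 3) at HMGB2 and 1347 ± 72.1 at HMGB1, followed by 948 ± 28.8 at HMGN4, 926 ± 32.1 at HMGN1 and 888 ± 43 at HMGB3. HMGN3 had 748 ± 11.7, HMGN5 627 ± 92, HMGN2 574 ± 26.3, HMGA1 408 ± 24.5 and HMGA2 384 ± 48. Neighbours in this order whose libraries overlapped were HMGN4, HMGN1 and HMGB3, then HMGN5 and HMGN2, then HMGA1 and HMGA2. Between conditions, 9 of these 10 strongest promoter peaks did not pass the test, with adjusted p-values of 0.169 or more, and HMGN4 did. The log2 fold changes of the 10 lay between −0.30 and 0.25. Of all 39607 promoter peaks, 867 passed the adjusted p-value lower and 817 higher.

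RefSeq promoter sequences of GRCh38.p14, 250 bases before to 50 bases after a start, were given for 12 starts of 8 of the 10 genes, with HMGB2 and HMGA2 not among them. The CCAAT word, the target of the NF-Y factor, occurred on either strand in 8 of the 12, against 34.6% of 35116 promoters, and the GC box GGGCGG, bound by SP-family factors, in 8 of 12 against 45%. TATAAA occurred in 1 of 12, at HMGN2, against 11.5%. HMGB1, HMGA1 and HMGB3 each gave more than 1 of the 12 starts, so the 12 are not independent. Over the 93 family peaks CCAAT occurred in 55.9%, against 48.2% of all tested peaks of this width. There GGGCGG occurred in 23.7% against 21%, and TATAAA in 28% against 27.1%. The windows below show, in capitals, the CCAAT word furthest before the start in a promoter of HMGB1, HMGB3, HMGN1 and HMGN3. The words lie 103, 144, 98 and 95 bases before the start, and each of these promoters holds at least 1 nearer word. The windows run 5′ to 3′ on the gene's strand, at chr13:30466023-30466051, chrX:150983179-150983207, chr21:39349170-39349198 and chr6:79234761-79234789.
HMGB1: ccccggagacagCCAATagcaaacgggct
HMGB3: cagcagccgcgcCCAATgggcgtccacgc
HMGN1: tgagtcccgtagCCAATgggcgggggtgg
HMGN3: acgttgcctcagCCAATggggcctcgcgg
These words are a match of letters, and binding was not measured here.

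HMGB1, the most abundant family protein in many cells, lies on chromosome 13 from 30456704 to 30617597 on the minus strand. Its main promoter peak had 1288, 1326 and 1428 normalized counts in empty vector and 1499, 1428 and 1430 in HMGB2OE libraries. The groups nearly touch, and the log2 fold change was 0.11 (standard error 0.0764, adjusted p = 0.448). Of the 12 HMGB1 peaks 9 had log2 fold changes above 0 and 0 passed the test, the lowest p being that of a weak peak 1125 bp before the start, with 97.3, 71.4 and 88.9 against 100, 136 and 99.1 normalized counts (log2 fold change 0.40, adjusted p = 0.193). Summed over its peaks, HMGB1 had 3146, 3030 and 3047 normalized counts in empty vector and 3412, 3495 and 3274 in HMGB2OE libraries. The sums did not overlap and rose by 10.5% (log2 fold change 0.14, standard error 0.0417, adjusted p = 0.0376 over 18290 gene sums, of which 5.74% passed higher and 3.36% lower). The 144 other tested peaks within 1 Mb of the gene had a median log2 fold change of 0.13, with 111 above 0, and centred on the median of its 10 Mb window the promoter peak's log2 fold change was −0.0036. The rise of the sum was not past the threshold when libraries were scaled by size alone (adjusted p = 0.0557), or when empty vector replicate 2 or 3 or HMGB2OE replicate 1 or 2 was left out (0.0618 to 0.163).

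HMGB3, an X-linked relative known from blood progenitors, had a flat promoter peak, with 839, 906 and 920 normalized counts in empty vector and 891, 845 and 959 in HMGB2OE libraries (log2 fold change 0.01, adjusted p = 0.953). Its intergenic peak 34421 bp past the nearest start had 79.2, 59.4 and 77.2 against 107, 91.7 and 94.6. There the libraries did not overlap, but the log2 fold change of 0.46 (standard error 0.186) had an adjusted p of 0.142.

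HMGA2 lies on chromosome 12 from 65824460 to 65966291 on the plus strand and has the most peaks of the family, 19 in its body and 20 in the intergenic stretch reaching 221.6 kb before the start. They were assigned by position alone, which does not show that they act on HMGA2. Its only called peak, from 65952606 to 65953107, is 128.4 kb into the gene, in the last intron of the main transcript and inside the untranslated part of an alternative last exon. The peak had 79.2, 95.5 and 83.1 normalized counts in empty vector and 51.9, 39.2 and 54 in HMGB2OE libraries. All HMGB2OE libraries were below all empty vector libraries, and the log2 fold change was −0.84 (standard error 0.212, adjusted p = 0.0138). The call was lost without empty vector replicate 2 (adjusted p = 0.0863) or HMGB2OE replicate 2 (0.0828). The peak is weak, at the 36.4 percentile of distal peaks, and it contains the AP-1 word TGACTCA or its complement at 2 places, as does at least 1 such word in 22 of the 93 family peaks and in 28% of all tested peaks of this width. The windows show the words in capitals on the plus strand, 5′ to 3′ in hg38, at chr12:65952739-65952767 and chr12:65952857-65952885.
first AP-1 word: ttctgtgcattTGAGTCAaaggatgaggc
second AP-1 word: catagggaagaTGAGTCAaacaaagaaaa

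The other HMGA2 peaks stayed within a fold of 1.5. A second intronic peak, from 65879845 to 65880346, had 160, 134 and 150 normalized counts in empty vector and 102, 115 and 90.1 in HMGB2OE libraries, which is −0.52 on the log2 scale (standard error 0.155, adjusted p = 0.0411). That p-value passed the threshold but the fold did not, and it was 0.093 in DESeq2 and 0.0564 to 0.144 in edgeR when any library but HMGB2OE replicate 2 was left out. The promoter peak 1472 bp before the start leaned the other way, with 332, 391 and 427 against 440, 474 and 455 (log2 fold change 0.25, standard error 0.106, adjusted p = 0.169), while the peak at the start itself had 441, 410 and 415 against 400, 423 and 368 (log2 fold change −0.08, adjusted p = 0.701). In all, 28 of 39 HMGA2 peaks were below 0.

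An upstream block of 11 peaks, 150.5 to 221.6 kb before the start, was picked out after its values were seen. It was drawn to end before the first HMGA2 peak above 0, so that all 11 were below 0 by that choice. Their median log2 fold change was −0.25, and 0 of them passed the test. The block holds strong distal sites. The peak centred 192.5 kb before the start had 1875, 1985 and 1871 normalized counts in empty vector and 1806, 1726 and 1719 in HMGB2OE libraries (log2 fold change −0.13, adjusted p = 0.33), and those 175.2 and 167.4 kb before it had log2 fold changes of −0.26 (adjusted p = 0.0627) and −0.25 (0.0749). In these 3 the libraries did not overlap. That held for 5 of the 11, all lower, against 12.5% lower over all tested peaks, a share that the choice of the block favoured. The remaining 28 HMGA2 peaks, which by that choice include every HMGA2 peak above 0, had a median of −0.05. Of the 90 other tested peaks within 1 Mb of the gene 45 were above and 45 below 0. The gene sum changed by −0.05 (standard error 0.0437, adjusted p = 0.482).

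**Figure D4:**
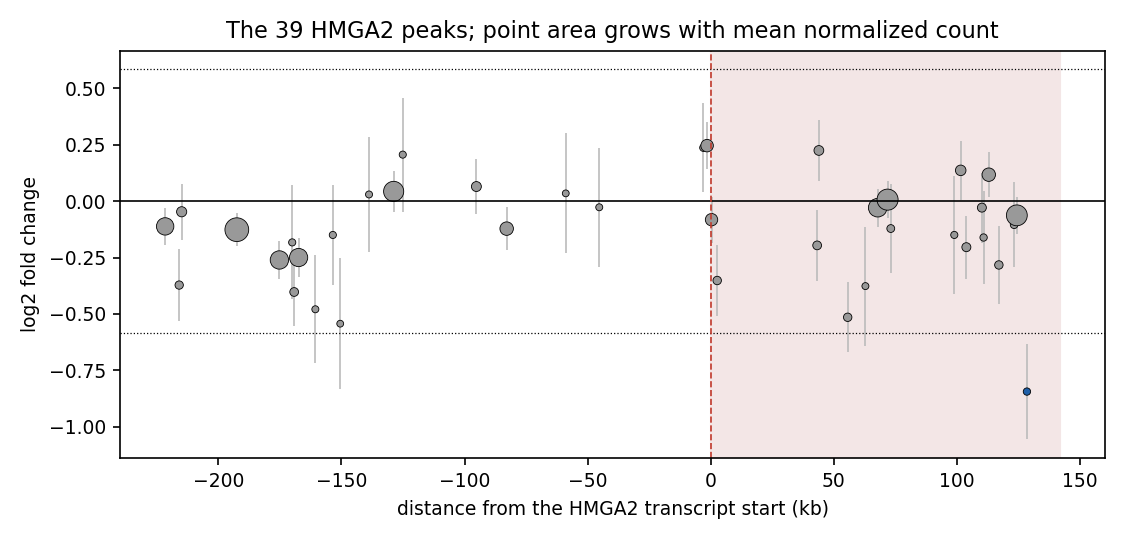
Log2 fold change (vertical axis) of the 39 HMGA2 peaks by distance from the transcript start in kb (horizontal axis), with standard errors, the gene body shaded and dotted lines at a fold of 1.5. The 11 peaks from 221.6 to 150.5 kb before the start are a block drawn to end before the first peak above 0. The called peak at 128.4 kb (blue) is at −0.84.

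HMGA1, the other AT-hook gene, had log2 fold changes from −0.36 to 0.09 over its 7 peaks, and 0 passed the test. Its promoter peak had 429, 414 and 381 normalized counts in empty vector and 346, 418 and 356 in HMGB2OE libraries (log2 fold change −0.13, adjusted p = 0.54). Its strongest peak was intragenic, 3872 bp past the nearest start, with 1261, 1445 and 1328 against 1370, 1258 and 1138 (log2 fold change −0.10, adjusted p = 0.534). Its lowest p was that of a weak peak 566 bp past a start, with 103, 66.2 and 70.2 against 57, 69.2 and 57.4 (log2 fold change −0.36, standard error 0.214, adjusted p = 0.354), which was −0.15 to −0.48 with a library left out. Libraries of the groups overlapped in all 7 HMGA1 peaks.

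Among the nucleosome-binding HMGN genes, a peak past the adjusted p-value was found at HMGN4 alone. HMGN4 is itself a retrogene, an expressed copy of spliced HMGN2 messenger RNA, on chromosome 6 from 26538366 to 26546933 on the plus strand. No peak covers its transcript start, and its strongest promoter peak, from 26537336 to 26537837, is centred 780 bp before it. That peak had 927, 981 and 936 normalized counts in empty vector and 779, 791 and 736 in HMGB2OE libraries. Every HMGB2OE library was lower, and the log2 fold change was −0.30 (standard error 0.0826, adjusted p = 0.0238), under the fold limit of a call. With each of empty vector replicate 2 and the 3 HMGB2OE libraries left out in turn, the adjusted p-value was 0.061 to 0.104. Of the 11 HMGN4 peaks 9 were below 0, and the sums of 3428, 3217 and 3275 in empty vector and 2805, 3060 and 2669 in HMGB2OE libraries differed by −13.8% (log2 fold change −0.21, standard error 0.0494, adjusted p = 0.0118). Without HMGB2OE replicate 1 or 3 that p-value was 0.0639 and 0.056.

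The HMGN4 promoter peak contains another gene. The RefSeq annotation places the arginine transfer RNA gene TRR-ACG1-2, 73 bases long, at 26537498 to 26537570, inside the peak. The middle 300 bases of the peak, chr6:26537437-26537736 on the plus strand of hg38, are shown with the transfer RNA gene in capitals.
HMGN4 promoter peak: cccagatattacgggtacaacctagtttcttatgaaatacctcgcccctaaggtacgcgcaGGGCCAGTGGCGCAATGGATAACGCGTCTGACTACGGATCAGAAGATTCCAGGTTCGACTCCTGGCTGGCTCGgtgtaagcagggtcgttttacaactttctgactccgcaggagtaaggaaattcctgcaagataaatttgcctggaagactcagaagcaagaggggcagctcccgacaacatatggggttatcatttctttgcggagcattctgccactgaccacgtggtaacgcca
Transfer RNA genes are read by RNA polymerase III from promoter elements inside the gene. Of the 11 HMGN4 peaks 6 overlap a transfer RNA gene, and all 6 were below 0, with a median log2 fold change of −0.26. The 5 others had a median of −0.27, with 3 below 0. Around the gene, in a comparison chosen after the values were seen and whose difference was not tested, the medians lay further apart. Of 193 other tested peaks within 1 Mb, 37 overlap a transfer RNA gene with a median of −0.32, 36 of them below 0, and 156 do not, with a median of −0.10 and 117 below 0. Over the genome, 211 tested peaks overlapped at least 1 of 465 RefSeq transfer RNA genes. Of these, 89 lay on chromosome 6 from 26 to 29 Mb, the region that holds HMGN4, with a median of −0.27 and 87 below 0. With the fold limit of a call, 2 of the 211 were called lower, against 1.44% over all tested peaks. The median log2 fold change of all 211 was −0.23, 198 were below 0, and 14 passed the adjusted p-value lower and 0 higher, against 3.03% and 3.44% over all tested peaks. In the fits with all 6 libraries that median stayed between −0.21 and −0.25, and it was −0.19 to −0.27 when a library was left out. The count past the adjusted p-value, without the fold limit, was 11, 2 and 22 on leaving out empty vector replicates 1, 2 and 3 in turn. It was 3, 5 and 4 on leaving out those of HMGB2OE. In DESeq2 it was 8. Centred on the median of its 10 Mb window, which was −0.0985, the HMGN4 promoter peak's log2 fold change was −0.20, against −0.30 uncentred. Whether HMGN4 changed apart from these neighbours was not tested.

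The other HMGN genes did not pass the test at any peak. HMGN1, a chromosome 21 gene, had 910, 963 and 905 normalized counts at its promoter peak in empty vector and 858, 910 and 773 in HMGB2OE libraries (log2 fold change −0.13, adjusted p = 0.417). HMGN2, the parent of HMGN4, had 557, 559 and 604 against 587, 590 and 596 (log2 fold change 0.04, standard error 0.0904, adjusted p = 0.838). HMGN3, which binds the thyroid hormone receptor, had a flat promoter peak of 746, 737 and 761 against 688, 795 and 709 (log2 fold change −0.03, adjusted p = 0.876). Of its 5 peaks more than 3 kb before the start, 4 had log2 fold changes from 0.34 to 0.45 and 1 had −0.06, and 0 passed the test (adjusted p = 0.19 to 0.936). The peak 35416 bp before the start had 142, 167 and 117 against 177, 208 and 154 normalized counts (log2 fold change 0.34, standard error 0.15), with overlapping libraries and an adjusted p of 0.19. HMGN5, an X-linked gene whose protein has a long acidic tail, had its strongest peak not at the main start but 80.2 kb into the gene at an alternative start, with 528, 641 and 710 against 599, 636 and 603 (log2 fold change −0.03, adjusted p = 0.886). All 3 HMGN5 peaks had overlapping libraries.

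**Figure D5:**
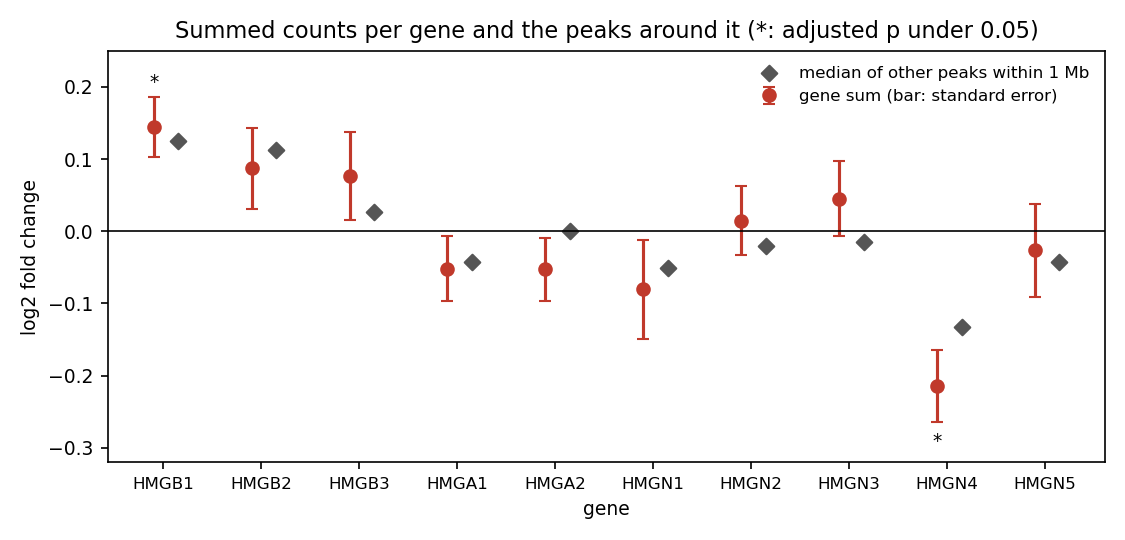
Log2 fold change of the summed counts of each gene (circles, bars are standard errors) beside the median of the other tested peaks within 1 Mb (diamonds). HMGB1 at 0.14 and HMGN4 at −0.21 are the gene sums past an adjusted p-value of 0.05, and the peaks around them have medians of 0.13 and −0.13.

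Processed pseudogenes of the family are numerous, with 154 annotated. How reads mapping to several places were treated is not given, so a pseudogene without a peak cannot be read as closed. Of the 154, 10 overlapped an atlas peak, at 14 peaks in all, of which 1 was called higher and 1 lower, against 1.87% and 1.44% over all tested peaks. The former is HMGB2P1. The latter is a peak at 45550461 to 45550962 on chromosome 15 in the annotated span of HMGN2P46, which covers 75155 bases, with 75, 47.3 and 57.3 normalized counts in empty vector and 23.8, 36.7 and 30.4 in HMGB2OE libraries (log2 fold change −0.96, standard error 0.277, adjusted p = 0.033). DESeq2 gave that peak an adjusted p of 0.0526, and GC-content offsets 0.0535, and the edgeR value was 0.0648 to 0.153 when empty vector replicate 1 or 3 or HMGB2OE replicate 1 or 3 was left out. Without the fold limit HMGB1P50, whose span overlaps a peak assigned to the DNA repair gene ERCC6, was also lower, with 566, 602 and 543 against 411, 433 and 397 (log2 fold change −0.46, adjusted p = 0.00325). Except for HMGB2P1 the log2 fold changes ran from −0.96 to 0.64.

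Genes with related domains or tasks were counted in the same way. Of 18 other HMG-box genes, 17 had tested peaks, and 4 of 176 peaks (2.27%) were called, 2 higher and 2 lower, against 3.31% over all tested peaks, with a median log2 fold change of −0.0016. The count of calls was 2 in DESeq2. It was also 2 when empty vector replicate 1 was left out, and 1 on leaving out HMGB2OE replicate 1 or 3 or the empty vector library numbered 2. At BBX a peak 1051 bp from a start had 98.7, 73.1 and 48 normalized counts in empty vector and 45.1, 39.2 and 25.9 in HMGB2OE libraries (log2 fold change −0.96, adjusted p = 0.0253), and one 86605 bp from its start rose by 0.60 (adjusted p = 0.036). TOX, a thymocyte factor, had a distal peak at 27.8, 12.9 and 37.4 against 45.9, 51.7 and 69.8 (log2 fold change 1.13, adjusted p = 0.0303), and TOX3 a distal peak at −0.62 (adjusted p = 0.0362). Linker histone genes, whose products compete with HMG proteins for the nucleosome, had 0 of 34 peaks called. Of the 34, 2 had an unadjusted p-value under 0.05, against 31358 of all 150117 tested peaks. DESeq2 also called 0 of them.

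The list of partners and receptors held 14 genes: SET, ANP32A, ANP32B, APEX1, NME1, TREX1, GZMA, RAG1, RAG2, AGER, TLR2, TLR4, LIN28A and LIN28B. It is mixed, since RAG1 and RAG2 encode the recombinase that HMGB proteins assist and the LIN28 genes act upstream of HMGA2. Of the 14, 12 had tested peaks. Of their 57 peaks, 3 (5.26%) were called, all lower, against 1.44% lower and 3.31% in either direction over all tested peaks. The median log2 fold change of the 57 was −0.07. The count of calls was 1 with GC-content offsets and 1 without empty vector replicate 2. The receptor gene TLR4 held 2 of them. Its intergenic peak 21014 bp from the start had 211, 129 and 106 normalized counts in empty vector and 82.5, 71.7 and 59.7 in HMGB2OE libraries (log2 fold change −1.03, standard error 0.202, adjusted p = 0.00191), and the peak 32241 bp away had 156, 174 and 126 against 94.4, 90.9 and 90.1 (log2 fold change −0.73, adjusted p = 0.00461). In both the groups did not overlap. The third, near the nucleoside diphosphate kinase gene NME1, had 161, 162 and 154 against 117, 118 and 79.9 (log2 fold change −0.59, adjusted p = 0.0214). AGER and GZMA had no tested peak.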

How the data were processed

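ATAC-seq was performed on 6 A375 libraries. The authors trimmed the reads (Trim Galore 0.6.7, cutadapt 4.0), mapped them with Bowtie 2 (hg38), dropped duplicates (Picard), called peaks by MACS2 with melanocyte data of others as control, merged these into 1 atlas and counted reads per peak with featureCounts. The deposited values are raw counts. Whether positions were shifted for Tn5, and how reads mapping to several places were treated, is not given in the sources used here, which bears on HMGB2P1. Counts per library (26910189 to 45645294) were tested in edgeR 4.0.16 (R 4.3.3) with TMM factors (0.975 to 1.02), filterByExpr and the quasi-likelihood F test without covariates on all 150117 tested peaks, with Benjamini–Hochberg adjustment, and again on counts summed per gene over 18290 genes. Standard errors were derived from the F statistic. Scripts were tested on simulated data with planted changes. An adjusted p-value under 0.05 was reached by 26.5% of changes of 0.585 on the log2 scale, 75% of those of 1 and 91.5% of those of 1.5. Far fewer peaks were changed in the simulation than passed in the data. The adjustment depends on that number, so these rates need not hold for the real fit. A peak that was not called may still have changed. Sequences were read from hg38 and aligned with Biopython 1.88. DESeq2 1.42.0 was an alternative. Others were different scalings, filters, fold limits, a replicate block, GC offsets, 10 Mb centring and left-out libraries.

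The members and gene lists were chosen with earlier results of these data known. Named were each member's strongest promoter peak, called peaks or the peak of lowest p, and called peaks of the other lists (other HMG-box, linker histone, partner and receptor genes), pseudogenes and word-sharing peaks. The second HMGA2 intronic peak, the HMGA2 block, the start peak of HMGA2, the strong intragenic HMGA1 peak, HMGB1P50 and the transfer RNA peaks were added after their values were seen.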

Additional observations from a re-analysis of the deposited data

How the results depend on the processing

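With each library left out in turn, 1 to 3 family peaks were called (3 with all libraries), 0 to 1 without HMGB2 (1), 0 to 1 strongest promoter peaks passed (1), 1 to 2 HMGB2 coding peaks were called (2) and 0 to 2 gene sums passed (2). The lowest family counts came without empty vector replicate 2, where the HMGB2 peak of 288 coding bases alone was called. No fold limit gave 5 family peaks and 3 without HMGB2, and the lower fold limit that was planned gave 2 without HMGB2. Scaling by library size alone left 1 gene sum, HMGN4. The alternatives for the following lists were chosen after seeing the data. DESeq2 called 2 of the other HMG-box peaks (4 in edgeR, 1 to 3 with a library left out) and 1 pseudogene peak. GC-content offsets called 1 peak of partners and receptors (3 in edgeR, 1 to 3 with a library left out). Pseudogene peaks called were 1 with at least 10 counts required in every library, 1 with GC-content offsets, 1 with those and the replicate block, and 1 to 2 with a library left out. Requiring 10 counts in every library removed HMGB2P1 from the test and so left 0 called peaks that share words with HMGB2.

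Values that changed sign were near 0 and did not pass the test. The HMGB2 promoter peak had a log2 fold change of 0.0109 by library size alone, 0.0542 after loess and −0.0848 to 0.0709 with a library left out. After loess the promoter peaks of HMGN3 and HMGN5 were at 0.0142 and 0.00882, and with a library left out at −0.0992 to 0.00993 and −0.135 to 0.0602. That of HMGB3 was then at −0.0339 to 0.0559. Gene sums were then at −0.0101 to 0.0298 for HMGN2, −0.00781 to 0.0821 for HMGN3 and −0.0808 to 0.00958 for HMGN5.

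Replicate numbers were not used to pair the libraries, since the deviations of same-numbered libraries correlated at −0.088, 0.191 and 0.128, and not every library correlated best with its own number. With a replicate block the count of family peaks called was 3, and 2 gene sums passed. Depth limits weak peaks, among them the HMGB2P1 and HMGB2 coding peaks, at 6.88 to 50 normalized counts in empty vector.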
